A study of Mus musculus with 96 samples.

Results

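The contrast described here is the Q140-by-region interaction: the striatum-minus-cortex difference of each gene in Q140 mice, less the same difference in wild-type mice. Its members were taken from the labels, not from measured values. They are 32 of the 96 libraries of the series, 8 in each of WT striatum, WT cortex, Q140 striatum and Q140 cortex. The study combined the Q140 allele with loss of Pms1, a mismatch repair gene, in C57BL/6 mice aged 6 months, and sequenced total RNA from striatum and cortex of every mouse. The WT group is labelled wild type. The Q140 group is labelled heterozygous Q140 knock-in, with no Pms1 allele named, and both groups hold 4 females and 4 males. Q140 is a knock-in of an expanded CAG repeat in Htt, the Huntington's disease gene, expressed from the gene's own promoter in all cells that use it. Both tissues of a mouse carry the same animal code and were paired by it. The labels do not say whether the mice of a group were littermates, so p-values measure the spread between these mice.

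The striatum is built mainly of medium spiny neurons (MSNs), GABAergic projection neurons of a direct pathway that carries dopamine D1 receptors and an indirect pathway that carries D2 receptors. The cortex is built mainly of glutamatergic projection neurons, laid down under other transcription factors. MSNs are the cells most affected in Huntington's disease, and loss of their characteristic transcripts is a known feature of its mouse models. An interaction value below 0 means that a gene is lower in striatum, relative to cortex of the same mice, in Q140 than in WT. It can therefore stand for a striatal gene whose regional difference narrowed or for a cortical gene whose regional difference widened.

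Library totals lay between 28672325 and 56364535 counts (median 40605342). The labelled tissues matched their markers: Slc17a7, the cortical vesicular glutamate transporter, lay between 2.66 and 5.48 CPM (counts scaled to library size) in the 16 striatal libraries and between 1134 and 1392 CPM in the 16 cortical ones. Htt had an interaction of -0.05 ± 0.04 (SE) and Pms1 of 0.03 ± 0.12, and neither was called. The Htt count joins both alleles, so it does not test the labels. The cortex of Q140 mouse 7-3 stood apart with 679 CPM of Ttr, a choroid plexus gene that lay between 0.39 and 3.8 CPM in the other cortical libraries. That library also had 0.55 CPM of Six3, a striatal gene at or below 0.0932 CPM in every other cortical library. The striatum of WT mouse 14-4 had 0.0369 CPM of Ccdc153, an ependymal gene, against 2.23 to 7.24 CPM in the other 15 striatal libraries. The number of called genes below, 3205, was 2971 without mouse 7-3 and 2872 without mouse 14-4.

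Genes were called at an adjusted p below 0.05 with edgeR's quasi-likelihood test and Benjamini-Hochberg adjustment over all 18928 genes tested, and every adjusted p below comes from that test. The interaction was called for 3205 genes (16.9%), of which 1262 (6.67% of genes tested) were above 0 and 1943 (10.3%) below it. Most were small: 174 calls above 0 and 210 below it exceeded 1.5-fold, and 116 in all exceeded 2-fold. The share of calls below 0 was 60.6%, but 20.6% when library totals replaced TMM scaling, which moved the median of all genes from 0.00 to 0.08. The knock-in effect itself was called for 5776 genes (31.8%) in striatum and 10 genes (0.0565%) in cortex, where 1157 genes had an unadjusted p below 0.05. Of the 3205 interaction calls, 2926 (91.3%) also had the striatal knock-in effect called in the same direction. Called genes below 0 had a median knock-in effect of -0.21 in striatum and 0.00 in cortex on the log2 scale; those above 0 had medians of 0.25 and -0.01. The interaction was therefore carried by striatum for most called genes, and 137 of the 3153 measured in both tissues had a larger estimate in cortex. In bulk RNA, fewer cells of a type and less RNA per cell cannot be told apart.

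Regional differences were the rule in both genotypes: 14813 genes (78.3%) differed between striatum and cortex in WT and 14715 (77.7%) in Q140. Among the 3205 interaction calls, 1541 genes kept a narrower regional difference in Q140, 794 a wider one, and 135 turned over to the other tissue. A further 405 had a regional difference called in WT alone and 327 in Q140 alone. To describe regional genes without using the libraries of the contrast, genes were classed by the 32 libraries of Pms1 het and Pms1 null mice without the knock-in, where 84.8% of genes had a regional difference called. Of 1846 tested genes over 2-fold higher in striatum there, 371 (20.1%) had an interaction called below 0 and 49 (2.65%) above 0, with a median of -0.10. Of 2090 genes over 2-fold higher in cortex, 259 (12.4%) were called above 0 and 119 (5.69%) below 0, with a median of 0.07. The shares for all genes were 10.3% below 0 and 6.67% above 0, with a median of 0.00, so calls toward a smaller regional difference were the more frequent kind on both sides. Of these 7 classes by regional fold, genes with no regional difference had the lowest share called, with 4.25% below 0 and 3.96% above 0. The largest regional genes were not the most often called: over 4-fold, 18.2% of striatum-enriched genes were called below 0, against 21.3% between 2- and 4-fold.

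**Figure D1:**
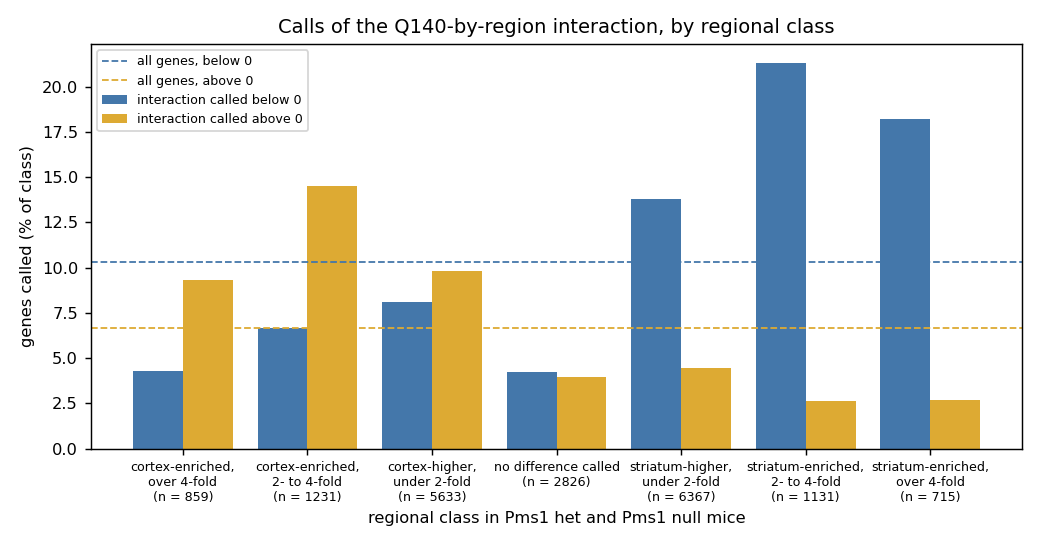
Share of genes (%, vertical axis) with an interaction called below 0 (blue) or above 0 (yellow) in 7 regional classes defined in Pms1 het and Pms1 null mice, ordered from cortex-enriched to striatum-enriched. Dashed lines give the shares over all genes, 10.3% and 6.67%; blue bars rise to 21.3% on the striatal side and yellow bars to 14.5% on the cortical side.

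By size, the median regional gene kept most of its difference in Q140, so the contrast is called here by its rule and not a loss of regional identity. For 715 genes over 4-fold higher in striatum, the Q140 regional log2 difference was a median of 95% of the WT one (quartiles 86.2% and 106%), and 66 genes (9.23%) kept less than 75%. For 859 genes over 4-fold higher in cortex, the median was 97.6% (quartiles 89.1% and 105%), and 76 (8.85%) kept less than 75%. Under 50% was kept by 5 and 4 genes of these lists. On the lists over 2-fold, the medians were 94.6% and 96.4%, but more genes kept less than 75%: 268 of 1846 (14.5%) in striatum, 51 of them under 50%, and 251 of 2090 (12%) in cortex, 34 of them under 50%. A log2 scale compresses such losses, since a gene that falls by 1 log2 unit from a regional difference of 8 keeps most of it. Per mouse, the median share for the striatum-enriched genes lay between 98.9% and 101.8% in WT, whose own mean sets 100%, and between 92.5% and 98.3% in Q140. The mice of the 2 genotypes did not overlap on that measure. For the cortex-enriched genes the ranges were 98.7% to 101.3% in WT and 96.1% to 100.6% in Q140, and they overlapped. These per-mouse shares use TMM scaling and were not taken with library totals. With library totals, the median interaction moved from -0.17 to -0.09 for the striatum-enriched list. For the cortex-enriched list it moved from 0.08 to 0.16, so which list shifted more depends on the scaling. The mean regional difference over the striatum-enriched genes was 3.14 ± 0.12 log2 units (SD, n = 8) in WT and 3.03 ± 0.09 (SD, n = 8) in Q140, with overlap. WT mouse 14-4 had the lowest WT value, 2.87, against 3.13 to 3.24 in the other 7, and without that mouse the difference between genotypes moved from -0.11 to -0.15. Over the cortex-enriched genes the means were -3.17 ± 0.04 and -3.09 ± 0.07 log2 units (SD, n = 8).

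**Figure D2:**
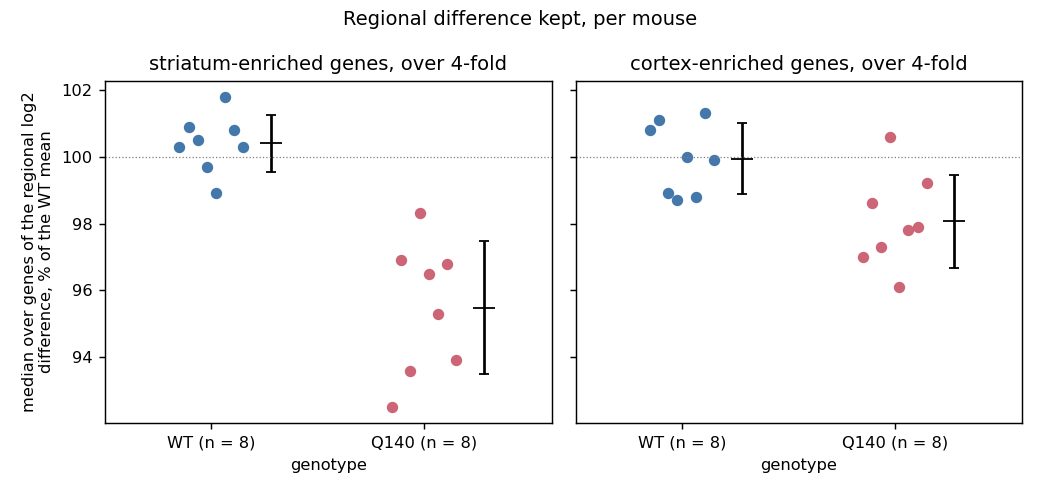
Median over genes of each mouse's striatum-minus-cortex log2 difference, as % of the WT mean (vertical axis), for striatum-enriched (left) and cortex-enriched genes (right); points are mice, bars the mean and SD of 8. The Q140 mice lie at or below 98.3% for striatum-enriched genes and overlap WT for cortex-enriched genes.

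Genes of MSN signalling made up the most uniform group. Of 30 tested pan-MSN genes, 25 had an interaction called below 0 and 0 above it, beside 10.3% and 6.67% of all genes. Their median was -0.54, and 23 of the 25 were higher in WT striatum than in WT cortex. The list, like the others here, was chosen with earlier results of these data known, so its count is not independent of them. The same 30 genes summed to between 26267 and 29603 CPM in WT striatum and between 18163 and 20613 CPM in Q140 striatum, with no overlap. In cortex the sums were 4622 to 4854 CPM in WT and 4690 to 4809 CPM in Q140. Ppp1r1b, which encodes DARPP-32, the phosphoprotein through which dopamine acts on MSN kinases, ran from 2488 (lowest) through 2717 (median) to 2889 CPM (highest) in WT striatum and from 1676 through 1760 to 1979 CPM in Q140 striatum. In cortex its medians were 82.2 CPM in WT and 83.7 CPM in Q140. Its regional difference fell from 5.01 to 4.38 log2 units, an interaction of -0.63 ± 0.08 (SE; adjusted p = 5.47e-05, edgeR), and the mice of the 2 genotypes did not overlap. Adcy5, the main striatal adenylyl cyclase, and Pde10a, the MSN cyclic nucleotide phosphodiesterase, both had interactions of -0.62 (SE 0.04 and 0.09). Rgs9, a regulator that shortens G-protein signalling, had -0.57 ± 0.06. The 5 members not called were Tmem158, Sh3rf2, Inf2, Adcy1 and Slc10a4. Ppp1r1b, Adcy5, Pde10a and Rgs9 were chosen as examples after their values were seen, as were Kcnj2, Tac1, Pdyn, Foxp2, Tbr1, Slc17a7 and Ttr elsewhere. For genes so chosen, a lack of overlap between mice adds no support.

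Of 22 channels and signalling genes of MSNs, 21 were called below 0 and 0 above it, beside 10.3% and 6.67% of all genes. Their median was -0.49, and the exception was the inward rectifier Kcnj2 (-0.26 ± 0.10, adjusted p = 0.11, edgeR). Scn4b, Rgs9, Ryr1, Gnal, Gng7 and Kcnab1 are also in the pan-MSN list, so the lists are not separate. Scn4b (chr9:45138395-45154152, GRCm38), the sodium channel beta subunit typical of MSNs, ran from 2445 through 2714 to 2845 CPM in WT striatum and from 1182 through 1366 to 1455 CPM in Q140 striatum. Its cortical medians were 195 and 201 CPM, and its regional difference fell by 1.04 ± 0.08 (SE) to 2.76 log2 units in Q140. Q140 striatum thus lay wholly below WT striatum for this gene while the cortices overlapped. Ryr1, a calcium release channel, ran from 128 through 145 to 166 CPM in WT striatum and from 57.9 through 72.8 to 86.9 CPM in Q140 striatum, with medians of 30.1 CPM in both cortices. Rgs14, a G-protein regulator, had 86.4, 92.0 and 106 CPM in WT striatum and 46.2, 49.9 and 53.9 CPM in Q140 striatum, and its regional difference fell from 1.54 to 0.57 log2 units. For Scn4b, Ryr1 and Rgs14 the regional differences of the 16 mice did not overlap between genotypes. They were named for large calls in these same mice, so that is no added support.

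The dopamine and adenosine receptors narrowed on both output pathways. Drd1 (chr13:54051183-54055705), the D1 receptor gene, ran from 369 through 401 to 414 CPM in WT striatum and from 244 through 268 to 294 CPM in Q140 striatum, with cortical medians of 5.05 and 5.24 CPM. Its regional difference fell from 6.25 to 5.62 log2 units (interaction -0.63 ± 0.09). Drd2 (chr9:49340627-49408177), the D2 receptor gene, ran from 205 through 224 to 235 CPM and from 138 through 155 to 166 CPM in the same groups, and its regional difference fell from 8.69 to 8.11 (interaction -0.58 ± 0.15). The Drd2 interaction was -0.97 in females and -0.14 in males, and that of Gpr6, below, -1.13 and -0.21; the test of the difference between the sexes called neither (adjusted p = 0.368 and 0.26, edgeR). Over all genes that test called 7 (0.0370%), and 1707 had an unadjusted p below 0.05. Both receptors were lower in every Q140 striatum than in every WT striatum, and Drd2 kept a regional difference of more than 8 log2 units. The indirect-pathway list had 5 of 7 tested members called below 0 and 0 above it (median -0.58), beside 10.3% and 6.67% of all genes. The called members were Drd2, the adenosine receptor gene Adora2a (-0.72 ± 0.13), the enkephalin gene Penk (-0.78 ± 0.15), the orphan receptor Gpr6 (-0.69 ± 0.18) and Ptprm. The knock-in effect on Penk was -1.08 in striatum and -0.31 in cortex, where it was not called. Of 8 direct-pathway genes, 3 were called below 0 (Drd1, the M4 muscarinic receptor Chrm4 and Sfxn1) and 1 above 0 (Eya1, 0.36 ± 0.11), beside the same shares of all genes. The call of Eya1 ended when any 1 of 10 of the 16 mice was left out. The direct-pathway peptide genes did not follow the receptors: Tac1, for substance P, had 0.24 ± 0.14 and Pdyn, for dynorphin, -0.17 ± 0.12, and neither was called. Tac1 medians were 221 CPM in WT and 244 CPM in Q140 striatum.

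Promoter sequence was read for the 20 named striatum-enriched genes with an interaction called below 0. Their shared direction follows from that choice. The RefSeq table (GRCm38.p6) held 16 of them, in 19 promoters; Adora2a, Mafa, Penk and Rgs14 had no entry. In the 250 bases before each start, both strands were searched for the cyclic AMP response element (CRE, TGACGTCA), its short form TGACG, which lies within the full site, the EGR motif GCGTGGGCG and the MEF2 motif. Of the 16 genes, 1 held a full CRE and 2 the short form, and 0 held an EGR or MEF2 match. Over all 32851 promoters of the table the shares were 1.55% for CRE, 17.8% for the short form, 0.536% for EGR and 2.92% for MEF2. The 2 promoters with a match are printed 5′ to 3′ on the strand of the gene, with the matches in capitals. The first belongs to Gpr6 (chr10:41072291-41072540, minus strand) and holds the full CRE; the second belongs to Sec14l3 (chr11:4064603-4064852, plus strand) and holds the short form.
Gpr6: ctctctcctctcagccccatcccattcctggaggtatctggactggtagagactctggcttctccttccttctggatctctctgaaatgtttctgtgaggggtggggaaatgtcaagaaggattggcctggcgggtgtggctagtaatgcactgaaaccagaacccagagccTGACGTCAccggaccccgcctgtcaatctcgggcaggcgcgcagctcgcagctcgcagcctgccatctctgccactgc
Sec14l3: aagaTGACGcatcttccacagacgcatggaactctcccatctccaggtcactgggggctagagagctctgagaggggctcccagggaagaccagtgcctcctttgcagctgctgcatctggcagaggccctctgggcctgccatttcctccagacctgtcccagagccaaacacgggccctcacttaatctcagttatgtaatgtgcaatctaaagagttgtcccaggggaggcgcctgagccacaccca
Gpr6 ran from 95.6 through 105 to 115 CPM in WT striatum and from 62.1 through 70.1 to 73.1 CPM in Q140 striatum. Sec14l3, a lipid-transfer protein gene, had 10.9, 12.3 and 20.3 CPM in WT striatum and 2.46, 5.62 and 6.71 CPM in Q140 striatum. A match in these letters is not a measured binding site.

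Transcription factors listed as striatal were split, and the list is not limited to factors that specify the striatum. Of 22 tested, 8 were called below 0 (Foxp1, Meis2, Rarb, Rxrg, Dlx6, Bcl11b, Foxo1 and Nr1d1) and 1 above 0 (Dlx5), beside 10.3% and 6.67% of all genes. The median was -0.04, and with library totals in place of TMM the counts were 7 and 4. Rxrg, a retinoid receptor, had an interaction of -0.47 ± 0.14, Bcl11b, which encodes the MSN differentiation factor CTIP2, -0.39 ± 0.10, and Foxo1 -0.35 ± 0.08. In females and males the values were -0.72 and -0.15 for Rxrg and -0.56 and -0.14 for Foxo1, a difference that was called for neither. Bcl11b ran from 478 through 520 to 540 CPM in WT striatum and from 406 through 435 to 459 CPM in Q140 striatum. Isl1, Six3 and Lhx8, with almost no cortical counts, had striatal knock-in effects of 0.31, 0.13 and 0.00 log2 units. Isl1 is a determinant of direct-pathway MSNs. It ran from 16.9 through 18.4 to 20.4 CPM in WT striatum and from 21.5 through 22.7 to 23.6 CPM in Q140 striatum, and the rise was called. Six3 ran from 73.9 through 78.2 to 82.6 CPM in WT and from 79.5 through 86.4 to 89.4 CPM in Q140 striatum, also a called rise. Lhx8, a factor of basal forebrain cholinergic neurons, had medians of 9.02 and 9.10 CPM. The interaction was not called for any of these 3 genes, but with cortical levels near 0 its standard errors were 0.27 for Isl1, 0.88 for Six3 and 0.96 for Lhx8. Foxp2 (interaction -0.03 ± 0.23) also rose slightly in striatum, by 0.12.

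Genes that mark cortex had list medians near 0, with calls above 0 in 5 of 23 and 4 of 22 genes beside 6.67% of all genes, and calls below 0 in 2 of each list beside 10.3%. Of 23 cortical transcription factors, 5 were called above 0, among them Cux2, Mef2c, Nr2f1 and Foxp4, and 2 below 0 (Fezf2 and Egr1), with a median of 0.07; the call of Nr2f1 ended when any 1 of 11 of the 16 mice was left out. Of 22 glutamatergic markers, 4 were called above 0, among them Cux2, Lamp5 and Rprm, and 2 below 0 (Fezf2 and Rspo1), with a median of -0.02. For 4 genes typical of cortex, striatal medians were 0.315 (WT) and 0.302 CPM (Q140) for Neurod2, 0.214 and 0.303 CPM for the zinc transporter Slc30a3, 0.603 and 0.665 CPM for Tbr1, and 4.05 and 3.50 CPM for Slc17a7, and none of these interactions was called. The summed glutamatergic markers ranged from 898 to 1065 CPM in WT striatum and from 893 to 978 CPM in Q140 striatum. Ipcef1, an exchange-factor-binding protein gene, rose toward the cortical level: 3.71, 4.70 and 5.35 CPM in WT striatum, 7.81, 10.1 and 12.0 CPM in Q140 striatum, and cortical medians of 146 and 145 CPM. Its regional difference narrowed from -4.99 to -3.88, with no overlap of mice, but the gene was named for a large interaction in these mice. Stmn2, a neuronal microtubule regulator chosen here after its value was seen, went from a striatal median of 62.0 to 95.9 CPM with 260 and 274 CPM in cortex (interaction 0.56 ± 0.03).

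**Figure D3:**
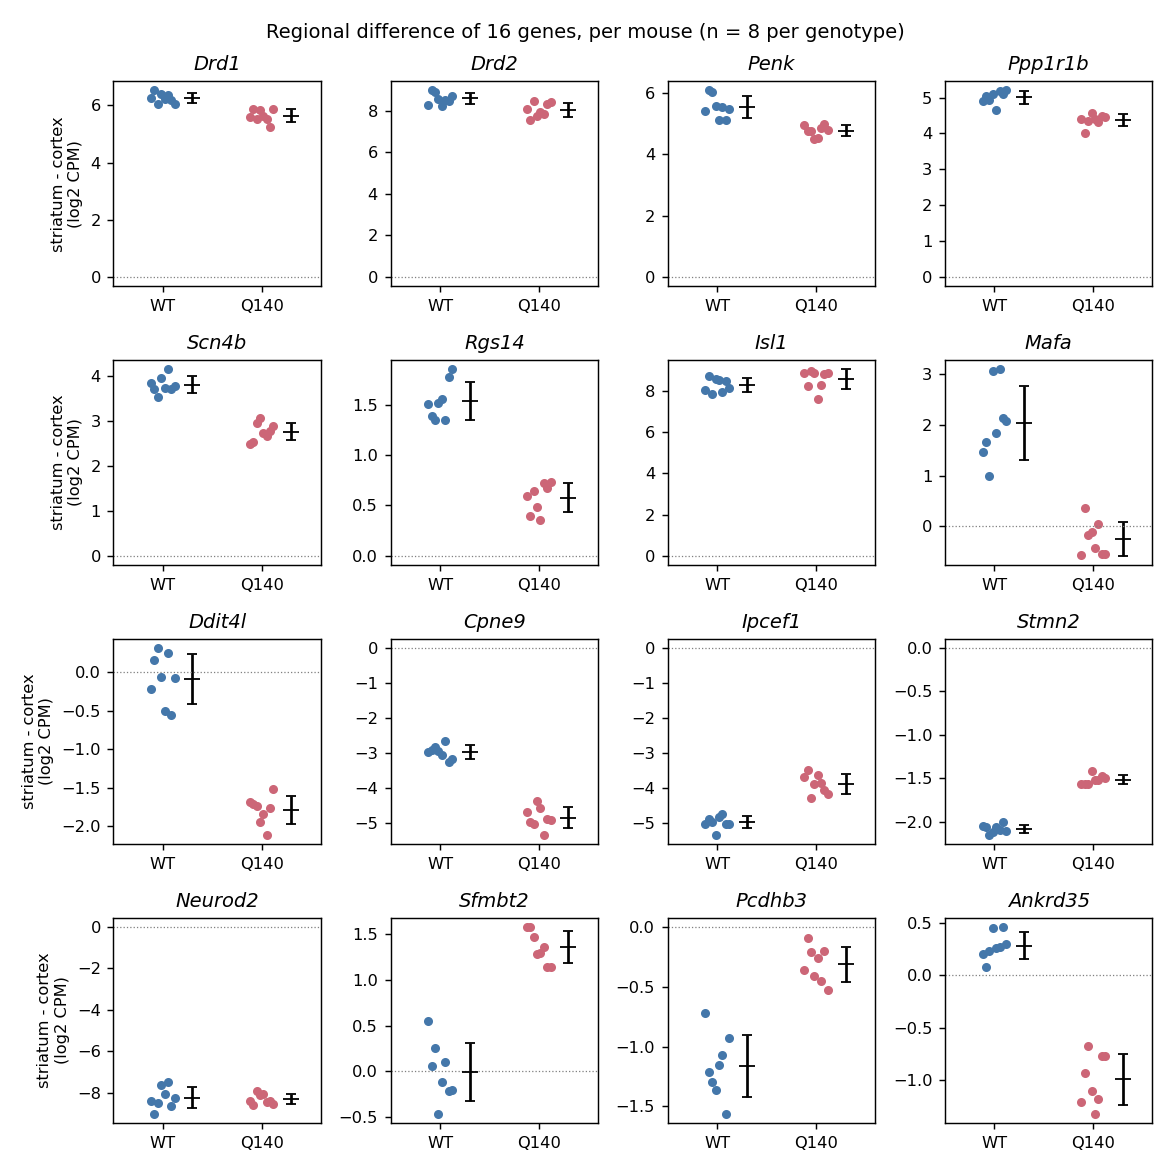
Striatum-minus-cortex log2 CPM difference (vertical axis, prior count 2) of 16 genes in each of 8 WT (blue) and 8 Q140 mice (red); bars are mean and SD and the dotted line marks no regional difference. MSN genes such as Scn4b and Rgs14 move toward 0, Ddit4l, Sfmbt2 and Ankrd35 leave or cross 0, Cpne9 moves away from it, and Isl1 and Neurod2 overlap between genotypes.

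The largest interactions below 0 joined 2 kinds of gene. They were picked by size in these mice, so a lack of overlap between genotypes follows largely from that choice. In the first, a striatal gene lost most of its striatal level. Mafa (chr15:75745490-75748228), a leucine-zipper transcription factor, had 1.91, 3.26 and 4.01 CPM in WT striatum and 0.493, 0.648 and 0.950 CPM in Q140 striatum, against cortical medians of 0.889 and 0.805 CPM. Its regional difference of 2.04 in WT was -0.28 in Q140 (interaction -2.32 ± 0.26), and the groups did not overlap. Aoah, which deacylates bacterial lipopolysaccharide, went from striatal medians of 1.73 to 0.312 CPM beside 0.252 and 0.265 CPM in cortex, and Serpinb1b, a serine protease inhibitor gene, from 4.99 to 1.72 CPM beside 0.241 and 0.224 CPM. Vwa7 went from 7.60 to 3.13 CPM beside 0.573 and 0.732 CPM. Wnt8b, a Wnt ligand, had the largest fitted value, -3.14 ± 0.90, but its cortical libraries reached at most 0.0415 CPM, so that size depends on single counts; its striatal values were 1.75 to 6.00 CPM in WT and 0.533 to 1.88 CPM in Q140, which overlapped. Without Q140 mouse 15-1 the interaction of Wnt8b was -2.82 and no longer called (adjusted p = 0.0985, edgeR). In the second kind, a cortical gene fell in striatum and its regional difference widened. Cpne9 (chr6:113282307-113305627), a copine, ran from 15.6 through 16.6 to 20.2 CPM in WT striatum and from 3.11 through 4.73 to 5.80 CPM in Q140 striatum, with cortical medians of 133 and 134 CPM. Its regional difference went from -2.97 to -4.82 log2 units (interaction -1.85 ± 0.12), with no overlap. Crh, the corticotropin-releasing hormone gene, went from a striatal median of 0.718 to 0.228 CPM with 6.38 and 5.76 CPM in cortex. Slc23a3 and the peptide gene Grp followed the same form at striatal medians of 0.190 and 0.0528 CPM in WT, and 0.0598 CPM and 0 in Q140. Their regional differences overlapped between genotypes.

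For other genes the knock-in made a regional difference where WT had none called, or turned it over. Ddit4l (chr3:137621612-137628333), an inhibitor of mTOR signalling counted in the pan-MSN list, was equal in the 2 WT tissues, with a striatal range of 36.3 to 54.5 CPM and a cortical range of 41.0 to 53.5 CPM. In Q140 striatum it lay between 9.88 and 14.2 CPM and in Q140 cortex between 37.0 and 53.5 CPM. Its regional difference was -0.09 in WT and -1.79 in Q140 (interaction -1.70 ± 0.14). Sfmbt2 (chr2:10370510-10595253), a Polycomb-related gene, did the opposite: medians were 2.34 CPM in WT striatum, 6.37 CPM in Q140 striatum and 2.48 CPM in both cortices (interaction 1.39 ± 0.13). Dsg2, a desmosomal cadherin, rose from 2.08 to 4.47 CPM in striatum. Its regional difference of 0.20 in WT was not called, with -1.24 in WT mouse 14-4 and 0.17 or more in the other 7, while Pms1 het and null mice without the knock-in had a called difference of 0.59; without mouse 14-4 the interaction was 1.21. The claudin-like gene Tmem114 fell from 0.913 to 0.237 CPM. Ankrd35, an ankyrin-repeat gene chosen after its values were seen, was higher in striatum in WT (median 18.9 against 15.8 CPM) and lower there in Q140 (7.58 against 15.3 CPM). Plk5, a polo-like kinase family gene also chosen so, turned over likewise, from 0.44 to -0.73 log2 units. For Ddit4l, Sfmbt2, Dsg2, Tmem114, Ankrd35 and Plk5 the mice did not overlap. These genes were chosen by their values in the same mice, so the lack of overlap is no added support. Wt1, a zinc-finger factor of kidney and gonad development, had 0 to 0.236 CPM in WT striatum and 0.281 to 1.30 CPM in Q140 striatum, while its cortical medians were 0.318 and 0.324 CPM (interaction 3.11 ± 0.41). It was the single called gene of 6 tested developmental factors, near the 16.9% of all genes called either way. Nts, the neurotensin gene, widened from striatal medians of 2.20 to 4.80 CPM over cortical values of at most 0.169 CPM. The named rise of Osr1 (interaction 2.00 ± 0.68) had 0.794 CPM in the striatum of Q140 mouse 8-2 and at most 0.107 CPM in the other 15 striata. Without that mouse it was 0.95 and not called.

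Beta protocadherins, clustered cell-adhesion genes from which neurons pick a surface code, moved together toward striatum. Of 22 tested, 16 were called above 0 and 1 below 0 (Pcdhb8), beside 6.67% and 10.3% of all genes, with a median of 0.42. The call of Pcdhb8 ended when any 1 of 7 of the 16 mice was left out. Of the 16 called above 0, 6 had been higher in WT cortex. Pcdhb3 had 3.19, 3.44 and 4.91 CPM in WT striatum and 5.19, 6.15 and 6.92 CPM in Q140 striatum, with cortical medians of 7.96 and 7.29 CPM, and its regional difference narrowed from -1.16 to -0.32 log2 units. Pcdhb4 turned over from -0.49 to 0.27, and Pcdhb2 narrowed from -1.09 to -0.24. The genes of this cluster resemble each other, so counts of single members are uncertain.

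**Figure D4:**
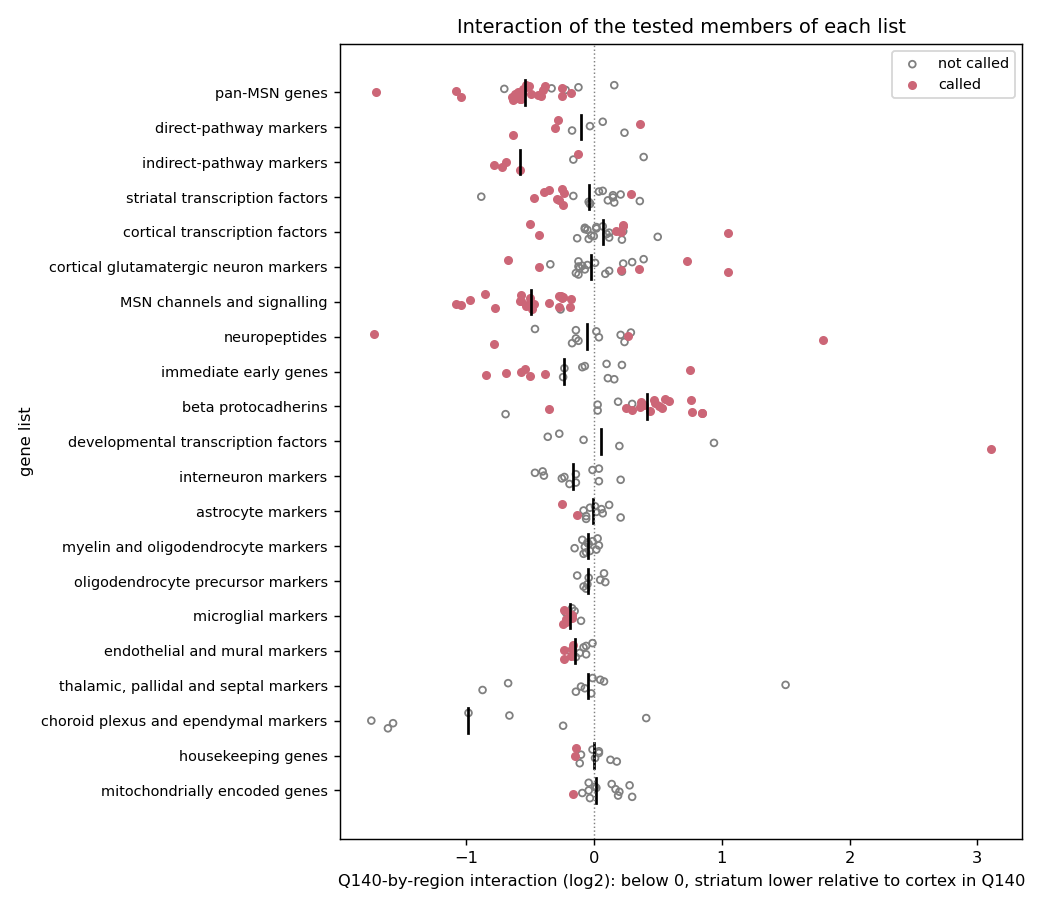
Interaction (log2, horizontal axis) of every tested member of 21 gene lists; filled red points were called, open grey points were not, and black bars are list medians. Pan-MSN genes and MSN channels lie almost wholly below 0 (medians -0.54 and -0.49), beta protocadherins mostly above 0 (median 0.42), and myelin and oligodendrocyte precursor lists close to 0 (medians -0.05), and microglial markers just below it (median -0.18).

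Immediate early genes, which neuronal activity induces, had negative median knock-in effects in both regions. The median knock-in effect was -0.82 in striatum, where 10 of 15 were called lower, and -0.64 in cortex, where 0 were called. The interaction was called below 0 for Egr1, Egr2, Egr3, Egr4, Nr4a1 and Nr4a3 and above 0 for Nr4a2, with a median of -0.23. Over all genes tested, 10.3% were called below 0 and 6.67% above it. Egr4 had 72.0, 104 and 120 CPM in WT striatum and 26.5, 46.7 and 78.1 CPM in Q140 striatum, against cortical medians of 52.8 and 48.6 CPM (interaction -0.69 ± 0.14). Egr2 had 25.5, 35.7 and 49.9 CPM in WT striatum and 2.65, 9.16 and 25.3 CPM in Q140 striatum, with cortical medians of 25.5 and 12.6 CPM. The 6 calls below 0 became 2 to 6 with a mouse left out (2 without 7-3 or 15-1), 3 with library totals and 1 with no animal block. Of the 16 mice, leaving out any 1 of 13 ended the call of Nr4a1, any 1 of 10 that of Egr2 and any 1 of 7 that of Nr4a2. In females alone 8 of the 15 genes were called below 0, in males alone 0. The interaction was -0.80 in females and -0.19 in males for Egr1, -1.59 and -0.20 for Egr2, -1.11 and -0.28 for Egr4, and -1.10 and -0.05 for Nr4a1. The test of the difference between the sexes, added after these values were seen, gave adjusted p-values of 0.322, 0.237, 0.104 and 0.151 (edgeR), so none of the 4 was called.

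Markers of other cells differed by type. Myelin, oligodendrocyte precursor, interneuron and thalamic, pallidal or septal markers had 0 interactions called in 12, 8, 12 and 10 tested genes. Over all genes, 16.9% were called either way. Microglial markers had 8 of 12 called below 0 and 0 above it, beside 10.3% of all genes, with a median of -0.18, and all 8 had been higher in WT striatum; 3 were called with library totals. P2ry12, a microglial purinergic receptor, had an interaction of -0.24 ± 0.05 and Cx3cr1, the fractalkine receptor, -0.22 ± 0.05. The 12 markers summed to between 525 and 563 CPM in WT striatum, 447 and 524 CPM in Q140 striatum, 362 and 421 CPM in WT cortex and 386 and 432 CPM in Q140 cortex. Endothelial and mural markers had 5 of 12 called below 0, with a median of -0.15, and 0 of 12 with library totals. Astrocyte markers had 2 of 12 called, both below 0, Slc4a4 (-0.25 ± 0.04) and Slc1a2, near the 16.9% of all genes called either way. Choroid plexus and ependymal markers had 0 of 7 called, with a median of -0.98; their sum was 745 CPM in the cortex of Q140 mouse 7-3, against a median of 7.28 CPM in Q140 cortex. The part of these cell markers in the neuronal results was not tested.

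Interactions carried by cortex were few. Of the 10 genes called in cortex, Abhd1 and Kdm6b also had an interaction called. Kdm6b, a histone H3 demethylase gene, fell from a cortical median of 43.2 to 32.5 CPM and had 42.2 and 45.1 CPM in striatum (interaction 0.55 ± 0.09). Abhd1 (chr5:30950066-30955091), on the chromosome of Htt (chr5:34761740-34912534), was higher in Q140 in both tissues, by 0.74 in striatum and 1.17 in cortex, and its interaction was -0.44 ± 0.10. In 7 of 8 Q140 mice it lay between 6.56 and 7.50 CPM in striatum, while mouse 23-4 had 3.17 CPM there and 3.02 CPM in cortex, within or below the WT ranges of 3.37 to 4.05 and 2.25 to 3.17 CPM. Q140 mouse 23-4 also had the highest share kept of the 8 for both regional lists. Its share was below the WT range for striatum-enriched genes (98.3%) and within it for cortex-enriched genes (100.6%). Its striatal sum of pan-MSN genes lay below every WT mouse, like that of all Q140 mice. Its regional difference was 2.88 for Scn4b (WT 3.53 to 4.15) and 0.73 for Rgs14 (WT 1.35 to 1.85). For Drd2, Rxrg, Adora2a and Bcl11b, among other genes, it lay within the WT range. The label of this mouse was not tested. Lars2, a mitochondrial leucyl-tRNA synthetase gene, had 92.9 to 225 CPM in WT cortex and 138 to 753 CPM in Q140 cortex, with the highest value in mouse 7-3. Its knock-in effect in cortex, 1.05 ± 0.33 (SE), was not called (adjusted p = 0.49, edgeR). Its interaction was -0.95 ± 0.29, a call that ended when any 1 of 9 of the 16 mice was left out. In Pms1 het and null mice without the knock-in the regional difference of Lars2 was -1.01, near the -1.17 of Q140, and its interaction was 0.58 in Pms1 het and 0.60 in Pms1 null mice, neither called. Rmrp and Mir6236 had the same form, with interactions of -1.45 and -1.24 and cortical knock-in effects of 1.52 and 1.29. Their regional differences in Pms1 het and null mice without the knock-in were -0.76 and -1.69. What these genes share with Lars2 was not tested. Kdm6b, Abhd1, Lars2, Rmrp and Mir6236 were chosen after their values were seen.

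The same contrast was taken in mice that share no library with it. The WT and Q140 mice are called the WT background below, though the Q140 labels name no Pms1 allele. In Pms1 het mice, Q140 Pms1 het less Pms1 het, the interaction was called for 2831 genes (15.0%). Of these, 1526 were also called in the WT background, 47.6% of that list and 53.9% of their own, and 1525 had the same direction. In Pms1 null mice it was called for 556 genes (2.92%), of which 424 were called in both, 13.2% of the WT-background list and 76.3% of their own, all in the same direction. Without the animal block, 215 genes were called in Pms1 null mice. Genes called below 0 in the WT background had medians of -0.23 there, -0.13 in Pms1 het and -0.08 in Pms1 null mice, and those above 0 had medians of 0.25, 0.18 and 0.10; the first of each triple comes from the libraries that chose the genes. For the gene lists, the pan-MSN median was -0.54, -0.37 and -0.19, with 25, 24 and 11 members called below 0 and 0 above, and the beta protocadherin median was 0.42, 0.36 and 0.26, with 16, 16 and 7 called above 0. The MSN channel list gave medians of -0.49, -0.29 and -0.19. Scn4b had interactions of -1.04, -0.54 and -0.36, Ddit4l of -1.70, -1.36 and -0.85, and Cpne9 of -1.85, -1.56 and -1.04. Other genes named above were called in neither of these backgrounds. Among them were Drd1 (-0.63, -0.17 and -0.16), Bcl11b (-0.39, 0.08 and 0.08), Nr2f1 (0.23, -0.08 and -0.04) and Nts (1.79, 0.53 and 0.81). The indirect-pathway median was -0.58, -0.61 and -0.08. Of the striatal transcription factors, 8, 6 and 0 were called below 0. In a fit of all 96 libraries, which shares the WT and Q140 libraries with the contrast, the difference of the interaction between the Pms1 null and WT backgrounds was called for 310 of 19723 genes (1.57%), 270 higher and 40 lower in Pms1 null. Among them were Scn4b (0.68, adjusted p = 0.00665, edgeR), Ddit4l (0.85), Adcy5 (0.36) and Drd1 (0.47). Between Pms1 het and WT the difference was called for 1 gene (0.00507%), Myo5b, a myosin motor gene named here after its value was seen; 2328 genes had an unadjusted p below 0.05. All Pms1 null mice have an animal code that starts at 16 or more, against 2 of 8 WT and 3 of 8 Q140 mice; the sources used here do not say what that number means, and its part in the difference was not tested.

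**Figure D5:**
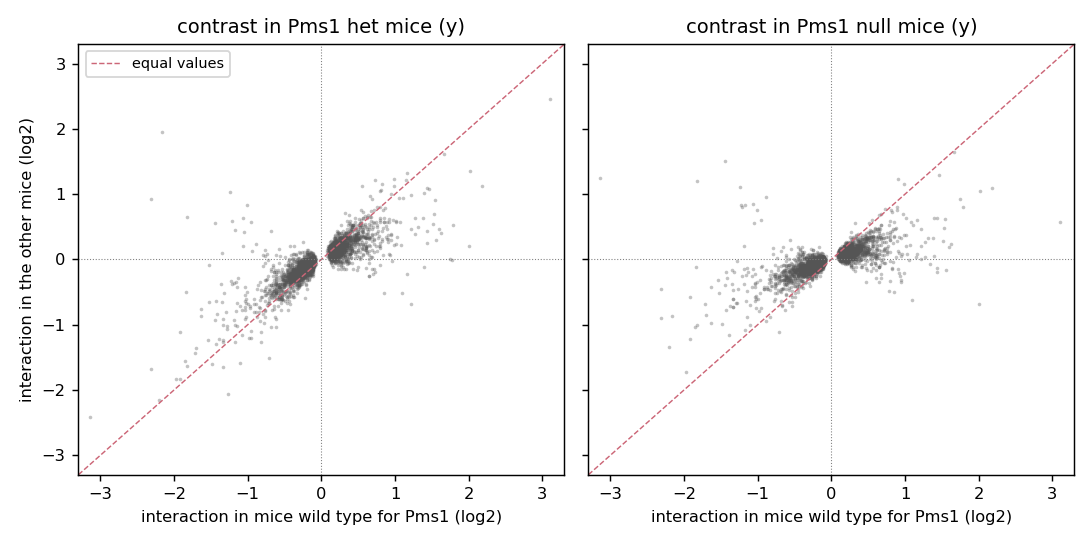
Interaction (log2) of the 3205 called genes in WT and Q140 mice (horizontal axis) against that in Pms1 het mice (left) and Pms1 null mice (right). The axis reads wild type for Pms1, but the Q140 labels name no Pms1 allele. Each point is a gene and the dashed line marks equal values. The sign was the same for 2956 of 3202 genes with a value in Pms1 het and 2827 of 3201 in Pms1 null mice; 4 points fall outside the axes.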

How the data were processed

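Read counts per gene, whole numbers and not normalized, were deposited by the authors for all 96 libraries; the submitters' processing notes list HTSeq 0.12.3, STAR 2.7.5c, SAMtools 1.10 and the builds GRCm38 and mm10, with no roles. RNA was RNeasy-purified total RNA in a stranded TruSeq kit, per the labels' protocols; how strand was handled in counting, and with which annotation, is not stated, so overlapping, antisense and near-identical genes are uncertain. The authors also deposited FPKM values, used here as an alternative (log2 of the value + 0.1). Of 48795 genes, 48435 matched GENCODE M21, which gave coordinates.

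Counts of the 32 libraries were fitted with edgeR 4.0.16 (R 4.3.3; TMM, filterByExpr, robust quasi-likelihood) with terms for animal, tissue, knock-in by tissue and sex by tissue. Tissues come from the same animal: deviations from group means correlated by a median of 0.15 over 16 pairs (lowest 0.0843; 13 above 0.1; each of the 16 best with its own animal). CPM are TMM-scaled; SE is the log2 value divided by the square root of F. Effects within a tissue came from 1 fit per tissue with sex. Regional lists came from Pms1 het and Pms1 null libraries. No pair of libraries of a group agreed within sampling noise (lowest chi-square per degree of freedom 3.91). The fit was tested on simulated data.

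The contrast, the gene lists and the members were chosen with earlier results of these data known. Named genes were the 12 largest called interactions each way (mean of at least 1 CPM in 1 group, same direction in both sexes, no predicted-gene names), the 10 strongest genes of each region, up to 3 called members each way of 21 lists, Htt and Pms1; a selection is printed, and some of these genes are not reported here. Alternatives were other scaling, filters, DESeq2 1.42.0, limma 3.58.1, no block, sexes alone, a test of their difference (added later), animal codes and leaving out each animal.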

Additional observations from a re-analysis of the deposited data

Results flagged for a closer look

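The knock-in effect differed between striatum and cortex for 3205 genes, and the interaction itself differed from that of the WT background for 310 genes in Pms1 null and 1 gene in Pms1 het mice; these are the tests given above. It differed between males and females for 7 genes, among them Col25a1, Flrt3, Il33, Opalin, Tmem164 and Trhde. Regional differences were also searched for a mouse far from the other 7 of its genotype, in 176 groups, and 13 held one; chance flags about 1 group in 20. In WT, the lowest mouse had 2.87 for the striatum-enriched score (next 3.13) and 0.15 log2 units for Ccdc153 (next 4.60), both mouse 14-4. Other lowest WT values were -1.24 for Dsg2 (next 0.17), 6.98 for Lhx8 (next 7.50) and -2.03 for Rprm (next -1.39). Highest WT values were -2.99 for Fezf2 (next -3.41), 0.79 for Inpp5j (next 0.66), 6.83 for Sec14l3 (next 5.90) and 1.37 for Slc4a4 (next 1.18). In Q140, the lowest mouse had -7.45 for Ttr (next 0.18) and 7.22 for Six3 (next 9.59), both mouse 7-3, and 4.01 for Ppp1r1b (next 4.33). The highest Q140 value for Osr1 was -0.40 (next -2.65), in mouse 8-2.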

How the results depend on the processing

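The number of interaction calls was 3205; it was 2353 with no replicate block, and other tools, filters, RLE scaling, no sex term or all 96 libraries left it between 2837 and 3579. It became 4883 with library totals in place of TMM, 1935 in females alone, 1418 in males alone, 1437 in animals with a first code number under 16 and 1270 in those of 16 or more, where WT mice are female and Q140 mice male; each of the last 4 uses fewer animals. Leaving out each animal in turn gave 2779 (without Q140 mouse 18-2) to 3289 genes. The share of striatum-enriched genes called below 0, 20.1%, was 12.2% and 11.4% in the early and late codes and 18.6% to 20.2% with an animal left out. Over all genes, calls below 0 were 862 of 19061 in the early codes and 915 of 19278 in the late codes. With library totals, 299 of the 1846 striatum-enriched genes were called below 0, beside 1006 of all 18928 genes. The share of cortex-enriched genes called above 0, 12.4%, was 21.4% with library totals, 4.90% in males alone, 4.43% in the late codes and 10.6% to 13.6% with an animal left out. With library totals 3877 of all 18928 genes were called above 0, so the 21.4% was near the share of all genes. Calls above 0 over all genes were 403 of 18882 in males alone and 355 of 19278 in the late codes. Q140 minus WT in the regional score ranged from -0.15 to -0.10 (striatum-enriched) and from 0.06 to 0.10 (cortex-enriched) with an animal left out. The striatum-enriched value, -0.11, was -0.05 with deposited FPKM and -0.17 with lists from Pms1 null mice. The cortex-enriched value, 0.08, was 0.09 with deposited FPKM and 0.07 with lists from Pms1 null mice. In Pms1 null mice 215 genes, not 556, were called with no block, and the cause was not tested. Of 87 called genes among those named, 72 stayed called with no block, 49 in males alone and 79 to 85 with an animal left out; Wnt8b turned to 0.52 in the late codes. Cortical levels near 0 limit the interaction of Isl1, Six3, Lhx8 and Wnt8b, and striatal levels near 0 that of Grp.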
